A study of Mus musculus with 4 samples.

Results

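The 9 genes described here make, import or use creatine, or keep the adenine nucleotides of muscle in balance: the creatine kinases Ckm, Ckmt2, Ckmt1 and Ckb, the creatine transporter Slc6a8, the creatine synthesis enzymes Gatm and Gamt, the adenylate kinase Ak1 and the AMP deaminase Ampd1. They were chosen by symbol as 9 of the 51826 rows of the expected count table, and the choice was made with the genotype comparison of these data already known. RNA came from the quadriceps, a thigh muscle, of 4 male mice of about 20 weeks that had not been exercised: 2 wild-type (WT) and 2 Mef2dα2 Eko mice, with 1 polyA-selected library per mouse. Mef2dα2 Eko mice are homozygous for a CRISPR-Cas9 deletion of the α2 exon of Mef2d, a MEF2 transcription factor gene of muscle, and use the alternative α1 exon in its place. The deletion is in the germline and so in every cell type, and all 4 mice had the C57BL6/J background and standard chow. The study calls the WT and Eko mice littermates, without saying which of them shared a litter. The labels do not give the founder line of the Eko mice. The study asked how the loss of the α2 exon changes muscle gene expression.

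Phosphocreatine is the fast energy store of muscle. Mitochondrial creatine kinase loads phosphate from ATP onto creatine at the inner mitochondrial membrane, and cytosolic creatine kinase at the myofibrils and the sarcoplasmic reticulum moves it back onto ADP where ATP is spent. Adenylate kinase rebuilds ATP from pairs of ADP molecules, and AMP deaminase removes the AMP that this leaves. Muscle makes little creatine itself and takes most of it from the blood through the transporter encoded by Slc6a8.

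Each library held between 72626757 and 85176059 counts, so 3 counts, taken as the smallest level a library can show, stood for 0.0348 to 0.0419 CPM (counts scaled to a common library total after TMM normalization). Such floors cover counting error only. Skeletal muscle markers summed to between 105835 and 111026 CPM in the 4 libraries, which matches the labelled tissue. WT replicate 1 stood apart from the other 3 libraries, with a chi-square per degree of freedom of 130 to 230 against them, while the others differed from each other by 38.7 to 45.3. Gene-level counts cannot tell the α exons apart, so the level of Mef2d (log2 fold change 0.02, standard error 0.08) checks no label.

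The sarcomeric mitochondrial creatine kinase gene Ckmt2 was the member that differed most between the genotypes. It was at 764 and 702 CPM in WT quadriceps, against 513 and 478 CPM in Mef2dα2 Eko quadriceps. Both Eko mice lay below both WT mice, and the gap between the genotypes was wider than the gap within either of them. The mean was 733 ± 43.4 CPM in WT and 496 ± 25.4 CPM in Eko quadriceps (SD, n = 2 mice each), so the Eko level was 67.6% of the WT level. The log2 fold change, Eko against WT, was -0.56 with a standard error of 0.08 and a 95% interval from -0.75 to -0.38. In bulk tissue, fewer cells or fibres with Ckmt2 RNA and less Ckmt2 RNA per cell cannot be told apart. These values rested on many reads, as WT libraries held 57954 and 56794 Ckmt2 counts and Eko libraries 44266 and 34157.

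Ckmt2 lies on the minus strand of GRCm38 at chr13:91853387-91876885. Its exons share 84 bases with 1700119I11Rik on the other strand, and that gene had 0 counts in each library. Ckm, on the plus strand at chr7:19404776-19422841, is its cytosolic partner in adult muscle. The 250 bases before the RefSeq start of each are shown because these are the muscle isoforms of the family, of which Ckmt2 was lower in Eko mice and Ckm was not. They are written 5′ to 3′ on the gene's strand from RefSeq on GRCm38.p6, at chr13:91876886-91877135 for Ckmt2 and chr7:19410844-19411093 for Ckm, and capitals mark E-boxes (CANNTG, which reads alike on both strands).
Ckmt2: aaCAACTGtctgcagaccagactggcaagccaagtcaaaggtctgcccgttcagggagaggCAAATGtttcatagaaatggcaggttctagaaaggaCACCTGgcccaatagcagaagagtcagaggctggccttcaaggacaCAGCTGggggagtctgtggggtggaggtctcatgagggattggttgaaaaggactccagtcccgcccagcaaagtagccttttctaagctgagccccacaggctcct
Ckm: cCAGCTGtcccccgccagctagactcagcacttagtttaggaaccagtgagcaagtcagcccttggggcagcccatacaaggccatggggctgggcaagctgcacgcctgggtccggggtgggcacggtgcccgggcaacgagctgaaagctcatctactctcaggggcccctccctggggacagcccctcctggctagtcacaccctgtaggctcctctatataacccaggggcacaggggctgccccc
The Ckmt2 window holds 4 E-boxes, the kind of site that myogenic basic helix-loop-helix factors bind, starting 248, 189, 153 and 107 bases before the start. The Ckm window holds 1, at 249 bases. Neither window holds TATAAA, the MEF2 consensus, or the extended half-site of the oestrogen-related receptors (TN followed by AAGGTCA), each searched on both strands. An E-box stood in 66.2% of 32536 mouse promoter windows of this length, TATAAA in 12.3%, the MEF2 consensus in 2.89% and the half-site in 1.13%. RefSeq windows were found for 7 of the 9 members, and the MEF2 consensus stood in that of Ckb alone, where it overlaps the TATAAA. These matches describe the letters of the windows and are not evidence of binding.

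The muscle creatine kinase gene Ckm, whose protein sits at the M-band and in the cytosol, did not share the difference. Ckm was at 13003 and 14284 CPM in WT quadriceps, against 13323 and 14016 CPM in Mef2dα2 Eko quadriceps. Both Eko values fell between the WT values. The log2 fold change was 0.00 with a standard error of 0.09, and its 95% interval from -0.22 to 0.22 lies above that of Ckmt2. Ckm took 1.29% to 1.45% of all counts of a library and ranked 15 by mean CPM among the genes tested. Its antisense neighbour A930016O22Rik shares 451 exon bases with it, but that gene's counts were only 0.0484% to 0.128% of those of Ckm.

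The other creatine kinases were nearly silent in this muscle. The brain-type gene Ckb, on chr12:111669361-111672338, was at 2.10 and 1.87 CPM in WT, against 2.04 and 1.80 CPM in Eko quadriceps. In both genotypes 1 mouse was near the upper and 1 near the lower of these values, so the groups overlapped (log2 fold change -0.04, standard error 0.19). Its processed copies Ckb-ps1 and Ckb-ps2 had 0 counts in each library. The ubiquitous mitochondrial gene Ckmt1, on chr2:121357714-121363737, was not tested, since its only count in 4 libraries came from WT replicate 2. Neither gene was higher in both Eko mice than in both WT mice.

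**Figure D1:**
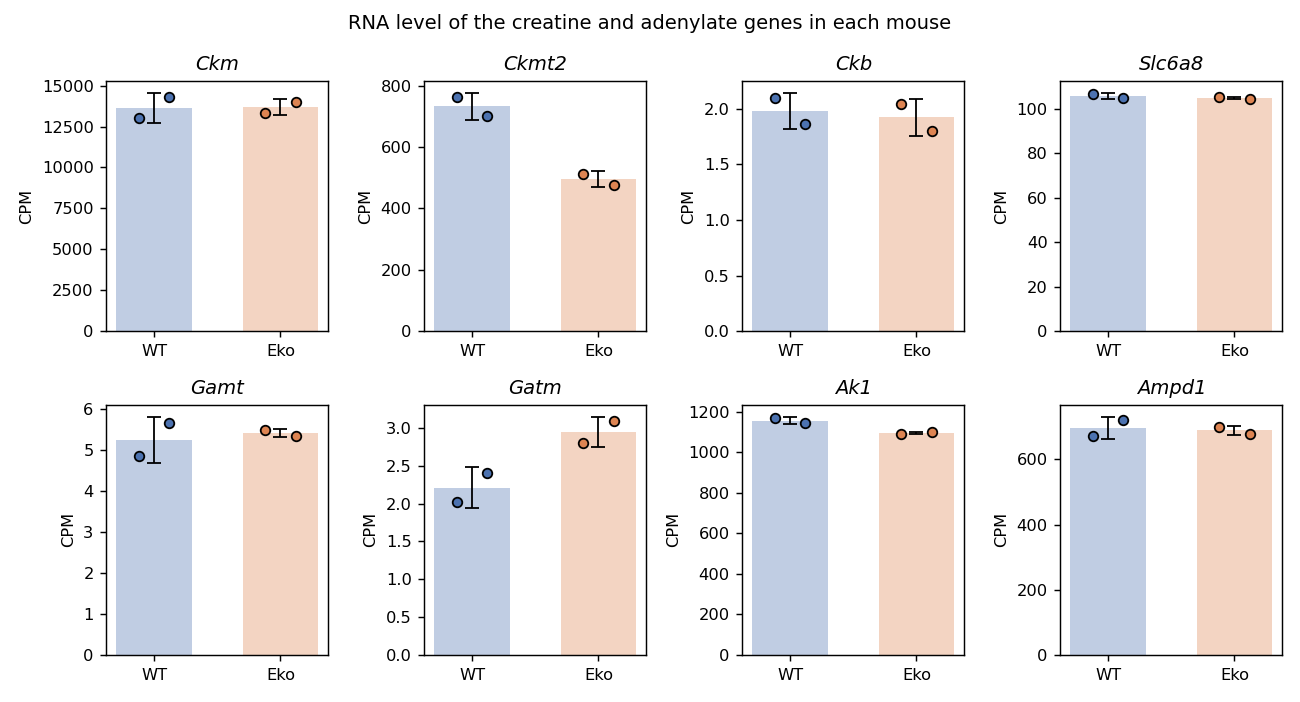
RNA level (CPM) of 8 of the 9 genes in each mouse, with bars at the mean and error bars of 1 SD (n = 2 mice per genotype); each axis starts at 0. The Ckmt2 points of the Eko mice, at 513 and 478 CPM, lie below both WT points, the Gatm points of the Eko mice lie above both WT points, and Ckm, Ckb, Slc6a8, Gamt and Ampd1 overlap.

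The balance between the creatine kinase isoforms moved with Ckmt2. Per length of exon, Ckmt2 made up 10.3% and 8.79% of the RNA of the 4 creatine kinase genes in WT quadriceps, against 7.02% and 6.26% in Mef2dα2 Eko quadriceps. The share was lower in both Eko mice, at 6.64% ± 0.539 against 9.56% ± 1.08 in WT (SD, n = 2 mice each). Ckm RNA per length exceeded that of Ckmt2 by 8.69-fold and 10.4-fold in WT and by 13.2-fold and 15.0-fold in Eko mice. With 2 mice per genotype the smallest p of an exact permutation test is 0.333, and none is given because the share rests on Ckmt2 itself.

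The creatine transporter gene Slc6a8, on chrX:73673150-73682502, had the steadiest level of the members. It was at 107 and 105 CPM in WT quadriceps, against 105 and 105 CPM in Mef2dα2 Eko quadriceps. The 4 mice were within a few CPM of each other and the genotypes overlapped. Its log2 fold change was -0.01 with a standard error of 0.06 and a 95% interval from -0.16 to 0.14.

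Gatm and Gamt encode the first and the last enzyme of creatine synthesis, and both had low RNA levels here. Gatm, on chr2:122594467-122611303, makes guanidinoacetate from arginine and glycine. It was at 2.02 and 2.40 CPM in WT quadriceps, against 2.81 and 3.09 CPM in Mef2dα2 Eko quadriceps. Both Eko mice were above both WT mice, at 134% of the WT mean, from 153 and 194 counts in WT, against 242 and 221 in Eko libraries. The log2 fold change was 0.42 (standard error 0.17, 95% interval 0.01 to 0.82).

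Gamt, on chr10:80258151-80261012, methylates guanidinoacetate to creatine. It was at 4.85 and 5.65 CPM in WT, against 5.49 and 5.36 CPM in Eko quadriceps. Both Eko values lay between the WT values, and the log2 fold change was 0.05 (standard error 0.13). The log2 ratio of Gatm to Gamt was therefore higher in both Eko mice than in both WT mice, by 0.37 on average.

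The adenylate branch showed small differences. Ak1, on chr2:32621758-32635058, encodes the main cytosolic adenylate kinase of muscle and was at 1170 and 1143 CPM in WT quadriceps, against 1091 and 1099 CPM in Mef2dα2 Eko quadriceps. Both Eko mice were below both WT mice, at 94.7% of the WT mean, with a log2 fold change of -0.08 (standard error 0.07, 95% interval -0.24 to 0.09). Ampd1, on chr3:103074014-103099720, encodes the AMP deaminase of skeletal muscle and was at 672 and 721 CPM in WT, against 699 and 678 CPM in Eko quadriceps. Its genotypes overlapped, and its log2 fold change was -0.02 (standard error 0.07).

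All 9 members are accounted for: 8 passed the filter on low counts and Ckmt1 did not. Across the 16120 genes given to edgeR's quasi-likelihood test, 1 member had an adjusted p below 0.05 (Ckmt2, adjusted p = 0.0484), while 0.416% of all genes tested did, 0.31% lower and 0.105% higher in Eko mice. The Ckmt2 value was close to the threshold, and the gene ranked 66 of the 67 called by p. The edgeR adjusted p of Ckmt2 was 0.0954 without Eko replicate 1 and 0.175 without Eko replicate 2, and 0.0503, 0.0522 and 0.0665 with RLE normalization, upper-quartile normalization and a minimum of 1 CPM in 2 libraries. Without WT replicate 1, the library that stood apart, its log2 fold change was -0.50 with an edgeR adjusted p of 0.0477. Gatm had an adjusted p of 0.422 in the same edgeR test. Both Eko mice lay on 1 side of both WT mice for 3 members (Ckmt2 and Ak1 below, Gatm above), and the same held for 43.8% of the genes tested, 23% below and 20.8% above. Because the genes were chosen with this comparison known, these counts describe them and nothing is read from them. Among the 979 genes tested with a mean of at least 100 CPM, 9 were called, and 8 had a log2 fold change at or below that of Ckmt2, itself included.

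**Figure D2:**
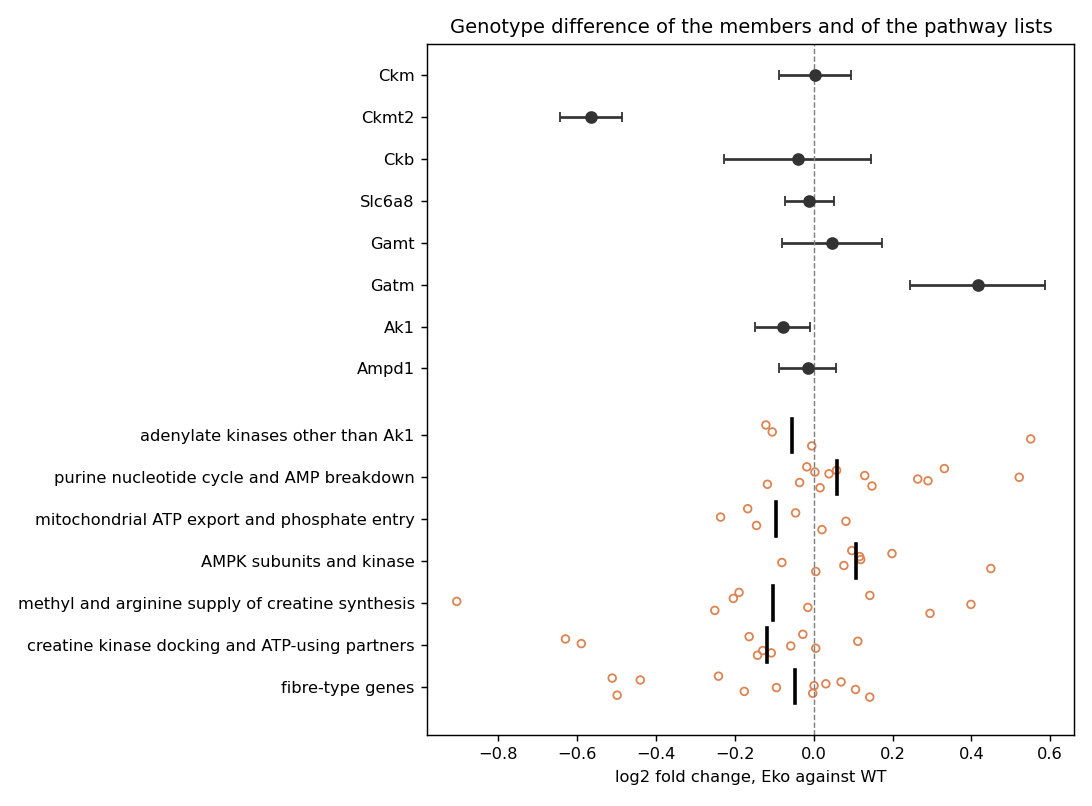
Log2 fold change, Eko against WT, of the 8 tested members (filled points, bars of 1 standard error) and of the tested genes of 7 related lists (open points, with the list median as a vertical line). Ckmt2 at -0.56 and Gatm at 0.42 lie farthest from 0 among the members, and the list medians lie between -0.12 and 0.11.

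Across genes, levels were compared as CPM per kilobase of exon. Ckm was highest, at 4464 to 4904 over the 4 mice, and its mean was 10.8-fold above that of Ak1, at 421 to 451. Ckmt2, at 321 to 514, spanned the range of Ak1, so by this length this pair of neighbours did not differ beyond the spread over mice. Per kilobase of merged exons, Ckmt2 was above Ak1 in the WT mice and below it in the Eko mice. Per kilobase of the longest transcript, Ckmt2 was below Ak1 in every mouse (means over the mice 413 and 540). Ampd1 followed at 189 to 203, Slc6a8 at 20.1 to 20.5 and Gamt at 3.36 to 3.91, and none of these ranges met. Gatm, at 0.672 to 1.03, overlapped Ckb, at 0.623 to 0.724, and Ckmt1 reached 0.00495 at most. Ckm, Ak1, Ckmt2 and Ampd1 thus lay above the transporter gene Slc6a8 in every mouse, and Slc6a8 lay above both synthesis genes and above Ckb and Ckmt1.

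**Figure D3:**
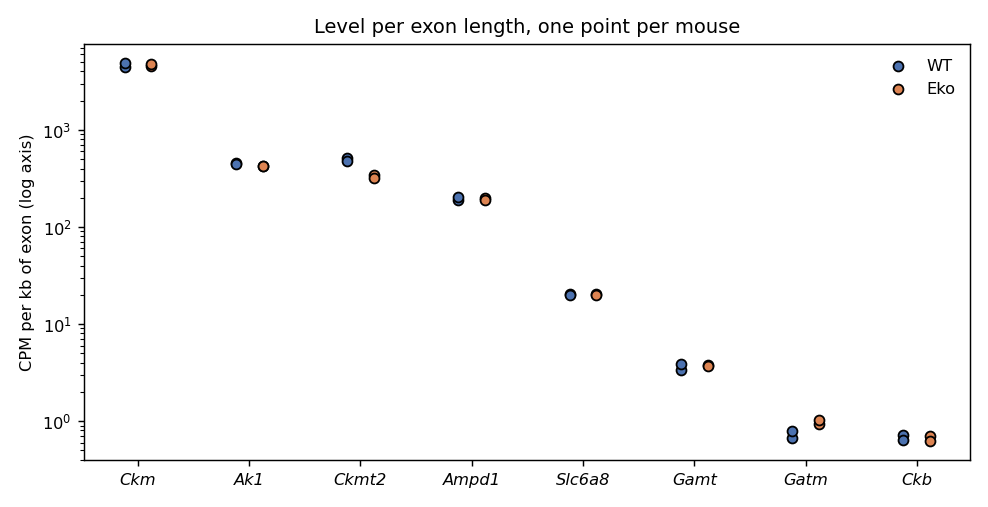
Level per exon length (CPM per kilobase, log axis) of 8 genes, with 1 point per mouse. The levels run from 4464 to 4904 for Ckm down to 0.623 to 0.724 for Ckb. By merged exon length Ckmt2 crosses Ak1 between the genotypes, but by the longest transcript it is below Ak1 in every mouse.

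Ckmt2 was next set against genes of its own compartment and against the 12 fibre-type genes, to show how its ratio to them differed. On the log2 scale, the ratio of Ckmt2 to Slc25a4, the adenine nucleotide carrier that feeds it ATP, differed by -0.52 (means -1.65 in WT and -2.17 in Eko mice). The ratio to Vdac1, the outer membrane channel through which phosphocreatine leaves, was also lower, with a difference of -0.65, and that to Immt, which holds the inner membrane's cristae in shape, with a difference of -0.46. For these 3 genes, chosen after values were seen, both Eko mice lay below both WT mice. Ckmt2 RNA was thus lower relative to these 3 as well as to the whole library. Other tested genes for mitochondrial ATP export and phosphate entry were not set against Ckmt2. Of these, Slc25a3, Slc25a5 and Vdac2 were lower in both Eko mice (log2 fold changes -0.17, -0.24 and -0.15). Vdac3 overlapped between the genotypes (0.02).

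The ratios to the fibre-type genes fell into unlike sets. The log2 ratio of Ckmt2 to Mb, the myoglobin gene, was -0.91 and -0.89 in WT quadriceps against -1.03 and -0.89 in Eko quadriceps, which overlap. The ratio to Myh2, the type IIa myosin heavy chain gene, overlapped too, with a mean difference of -0.05, and that to Myh1, the type IIx gene, differed by -0.13 with both Eko mice below both WT mice. These 3 were the genes of the list whose own levels were lower in both Eko mice. Against the other fast-fibre genes of the list, Myh4, Tnni2, Tnnt3, Tnnc2 and Pvalb, the differences ran from -0.71 to -0.56. Both Eko mice were below both WT mice for each. Against the slow-fibre genes Myh7, Tnni1, Tnnt1 and Tnnc1 the mean differences ran from -0.71 to -0.48, but the genotypes overlapped and the WT mice stood far apart for these genes. Whether the lower Ckmt2 and the lower Mb, Myh2 and Myh1 have a common source was not tested.

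**Figure D4:**
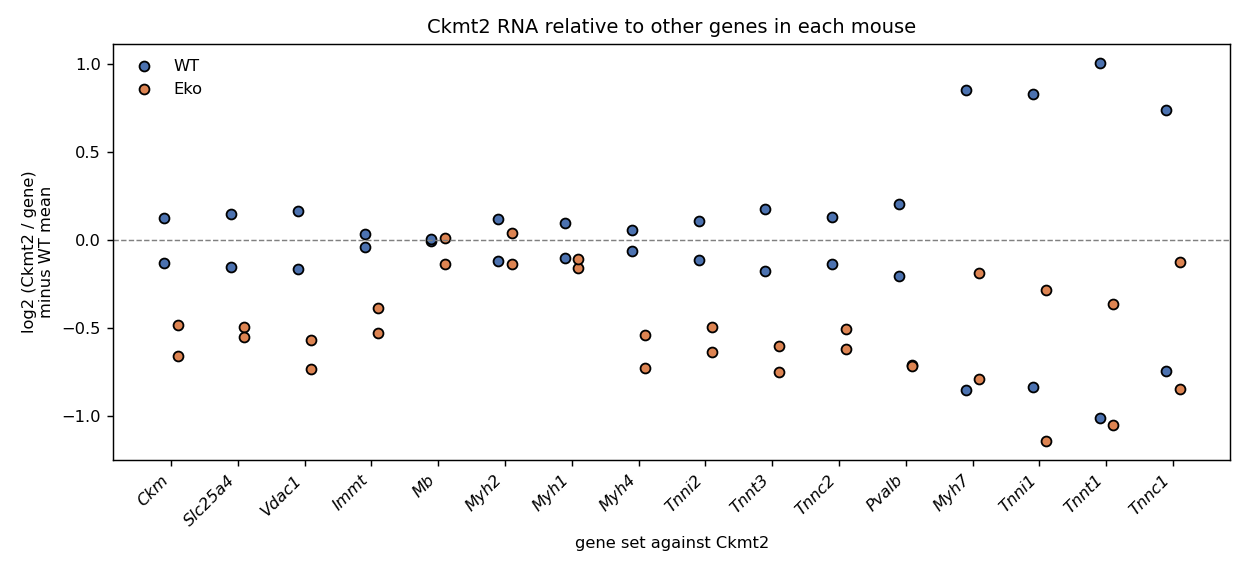
Log2 ratio of Ckmt2 to each of 16 genes in each mouse, minus the WT mean of that ratio, with 1 point per mouse. The Eko mice lie below the WT mice for Ckm, Slc25a4, Vdac1 and Immt, with mean differences from -0.65 to -0.46. The same holds for the 5 genes Myh4 to Pvalb. The Eko mice lie close to the WT mice for Mb, Myh2 and Myh1. For the 4 slow-fibre genes Myh7 to Tnnc1 they overlap the widely spread WT mice.

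The 12 fibre-type genes were all tested and none passed in either direction in edgeR's quasi-likelihood test, while 3 of the 12 had an unadjusted p below 0.05, as did 11.6% of all genes tested. Myh2 was at 1576 and 1709 CPM in WT, against 1264 and 1041 CPM in Eko quadriceps, with a log2 fold change of -0.51, a standard error of 0.11 and an edgeR adjusted p of 0.161. Mb was at 1430 and 1303 CPM in WT, against 1050 and 884 CPM in Eko quadriceps, with a log2 fold change of -0.50 and an edgeR adjusted p of 0.156. Myh1 was at 4967 and 3984 CPM in WT, against 3476 and 3121 CPM in Eko quadriceps, with a log2 fold change of -0.44 and an edgeR adjusted p of 0.261. For these 3 genes both Eko mice were below both WT mice. DESeq2 gave Mb, Myh2 and Myh1 adjusted p-values of 0.000355, 0.00045 and 0.0137. With the replicate number as a block, edgeR called Mb (adjusted p = 0.0295), and it called 1.15% of all genes in that fit. Myh4, the type IIb myosin gene and the highest of the list per length, had a log2 fold change of 0.07. The slow-fibre gene Myh7 varied within the genotypes, at 113 and 339 CPM in WT, against 237 and 145 CPM in Eko quadriceps. The remaining 7, the troponin genes Tnni1, Tnni2, Tnnt1, Tnnt3, Tnnc1 and Tnnc2 and the calcium buffer gene Pvalb, overlapped between the genotypes.

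The genes whose profile over the 4 mice came nearest to that of Ckmt2, by the root mean square distance of centred log2 CPM, included Dlg4, Hr, Hn1 and Diaph1, out of 16052 genes compared. Their distances were 0.0182, 0.0238, 0.0240 and 0.0298, where the median gene lay 0.322 away. Their log2 fold changes ran from -0.61 to -0.54, and edgeR called Hr, Hn1 and Diaph1 (adjusted p = 0.0484, 0.0484 and 0.0425) but not Dlg4 (0.222). Dlg4 encodes a postsynaptic scaffold protein, Hr a transcriptional corepressor and Diaph1 a formin that assembles actin. Diaph1 was at 141 and 128 CPM in WT, against 89.6 and 86.1 CPM in Eko quadriceps. Mb stood at rank 38 of this order, Myh1 at 147 and Myh2 at 198. With 4 mice such an order is a description, and many genes that differ between the genotypes will stand near its top.

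Of the genes around the creatine system, 70 were listed in 7 groups, 61 were tested, and none passed in either direction with edgeR. An unadjusted p below 0.05 was seen for 13 of the 61, against 11.6% of all genes. DESeq2 called 4 and limma-voom none, where they called 2.39% and 0.354% of the genes they gave an adjusted p. Leaving out single mice changed which of these genes edgeR called. The log2 fold change became -0.99 for Atp2a2 without WT replicate 1, and 0.67, 0.56 and -0.58 for Prkag3, Oat and Myh1 without WT replicate 2. It became -1.11 for Myom3 without Eko replicate 1. These fits have 1 mouse in a genotype, and the share of all genes called in them was not computed. The fit with no filter on low counts called 9 of the listed genes and 3.25% of all genes. Both Eko mice lay below both WT mice for 17, above them for 13, and 31 overlapped, where the shares over all genes were 23% below and 20.8% above. The median log2 fold change was -0.003 over the 61 and -0.005 over all genes tested.

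Among the other adenylate kinases, 4 of 8 were tested and none passed. Ak4, a mitochondrial matrix form, was at 4.36 and 4.56 CPM in WT, against 6.69 and 6.38 CPM in Eko quadriceps, so both Eko mice were above both WT mice, with a log2 fold change of 0.55, a standard error of 0.11 and an edgeR adjusted p of 0.157. Ak3, the highest of them per length of merged exons, had a log2 fold change of -0.11. The list median was -0.06.

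The purine nucleotide cycle returns the IMP made by Ampd1 to AMP, and 13 of its 14 listed genes were tested without a call. Adssl1, the muscle adenylosuccinate synthase and the highest of the list per length, had a log2 fold change of 0.04. Nt5c1a, a cytosolic 5′-nucleotidase that acts on AMP, was at 6.19 and 5.79 CPM in WT, against 7.47 and 9.75 CPM in Eko quadriceps. Both Eko mice were higher, with a log2 fold change of 0.52, a standard error of 0.15 and an edgeR adjusted p of 0.267. The list median was 0.06. The genotypes overlapped for 9 of the 13 genes, where 43.8% of all genes tested did not overlap.

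For the export of ATP from mitochondria and the entry of phosphate, 6 of 7 genes were tested, none passed, and the median was -0.10. Slc25a4, the highest per length, had a log2 fold change of -0.05 and overlapped between the genotypes. Slc25a5, a second adenine nucleotide carrier at far lower level, was at 20.4 and 21.8 CPM in WT, against 17.7 and 18.1 CPM in Eko quadriceps. Both Eko mice were lower, with a log2 fold change of -0.24 and an edgeR adjusted p of 0.324.

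AMPK, the kinase that senses AMP, had all 8 of its listed genes tested and none passed. Both Eko mice were above both WT mice for 5 of the 8, a pattern held by 20.8% of all genes tested, and the median was 0.11. Prkag3, the γ3 subunit typical of fast glycolytic muscle, was at 92.1 and 121 CPM in WT, against 158 and 133 CPM in Eko quadriceps, with a log2 fold change of 0.45, a standard error of 0.14 and an edgeR adjusted p of 0.310. Prkab2, the highest of the list per length, had a log2 fold change of 0.12.

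Creatine synthesis draws on arginine and on methyl groups from S-adenosylmethionine, and 8 of the 11 genes listed for this supply were tested without a call. Oat, an ornithine aminotransferase, and Mat2a, which makes S-adenosylmethionine, were the highest of them per length. Oat was at 108 and 131 CPM in WT, against 155 and 159 CPM in Eko quadriceps. Both Eko mice were above both WT mice, with a log2 fold change of 0.40, a standard error of 0.10 and an adjusted p of 0.222 in edgeR and of 0.0159 in DESeq2. Mat2a had a log2 fold change of -0.19 with both Eko mice lower. Gnmt, another user of S-adenosylmethionine, had the widest log2 fold change, -0.91, at under 0.5 CPM in each mouse and with a standard error of 0.48.

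The last list held sites where creatine kinase docks or its ATP is spent. All 10 genes were tested and none passed, with a median of -0.12. Atp2a1, the calcium pump of fast fibres and the highest per length, had a log2 fold change of 0.11. Myom3, an M-band protein gene, was at 38.0 and 37.0 CPM in WT, against 31.2 and 17.2 CPM in Eko quadriceps, so the lower level rested largely on Eko replicate 2, with a log2 fold change of -0.63, a standard error of 0.24 and an edgeR adjusted p of 0.389. Myom1 and Myom2, its far more abundant relatives per length, had log2 fold changes of -0.03 and -0.16. The slow-fibre calcium pump gene Atp2a2 overlapped between the genotypes, with 1 WT mouse at 291 CPM and the other 3 mice between 126 and 168 CPM.

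Markers of other cell types were low beside those of muscle. Some sums differed between the genotypes, but edgeR called none of these markers in either direction. The summed level of 6 macrophage markers was 39.2 and 29.9 CPM in WT and 25.6 and 20.1 CPM in Eko mice, and both Eko mice were below both WT mice for 4 of the 6 (23% of all genes lay so), with none at 0. Their median log2 fold change was -0.69. The 6 adipocyte markers summed to 120 and 83.4 CPM in WT and to 86.7 and 66.0 CPM in Eko mice, which overlap, and most of each sum was Fabp4. Of the other 5, Adipoq, Plin1, Cidec and Retn had Eko means at 38.6% to 47.0% of the WT means. Lep went the other way, at 115% of the WT mean, with 2.40 and 2.00 CPM in WT, against 4.43 and 0.615 CPM in Eko mice. The list's median log2 fold change was -1.08. The edgeR test called none of the 6, and 3 had an unadjusted p below 0.05, as did 11.6% of all genes tested. The genotypes overlapped for all but Retn, where 43.8% of all genes tested did not overlap. WT replicate 1 was highest for Adipoq, Plin1, Cidec and Retn. The 6 nerve and Schwann cell markers summed to 44.3 and 46.6 CPM in WT and to 48.8 and 59.5 CPM in Eko mice, with both Eko mice higher. Sums for 6 endothelial (126 to 145 CPM), 6 fibroblast (341 to 441 CPM), 6 erythroid (108 to 111 CPM) and 4 smooth muscle markers (53.7 to 68.1 CPM) overlapped between the genotypes. Of the 6 fibroblast markers, 3 had both Eko mice below both WT mice, as did 23% of all genes, and the other 3 overlapped. Such sums do not measure how much RNA a cell type gives. The part of these cell types in the values of Ckmt2, Gatm, Ckb and the other members was not tested.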

How the data were processed

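PolyA-selected quadriceps RNA of 2 WT and 2 Mef2dα2 Eko mice was sequenced in pairs of reads. The authors quantified genes with RSEM on mm10 (GRCm38) and deposited expected counts without normalization; the submitters' processing notes name STAR 2.6.1a. The strand setting of the counting is not given in the sources used here. All values were whole, so rounding changed none.

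Genotypes were compared in R 4.3.3 by edgeR 4.0.16 and its quasi-likelihood test (genotype as the only term, TMM normalization, filterByExpr, Benjamini-Hochberg adjustment over all 16120 genes tested of 24621 with any count, threshold 0.05). The study's tool, DESeq2 (1.42.0), limma-voom (3.58.1), RLE and upper-quartile normalization, no filter, a filter of 1 CPM in 2 libraries, a replicate block and leaving out each mouse were alternatives. The fit was tested on simulated data. Total counts were 72626757 to 85176059 per library.

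Positions and exon lengths came from GENCODE M21 on GRCm38. The members and lists were chosen with earlier results of these data known. Named were the members, in each list the genes called, the most abundant (per length) and the one with the largest absolute log2 fold change, all fibre-type genes, and the 5 profiles nearest to Ckmt2, of which 1 is not reported here. Slc25a4, Vdac1 and Immt, set against Ckmt2, and Myom1, Myom2 and Atp2a2, were chosen after values were seen.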

Additional observations from a re-analysis of the deposited data

How the results depend on the processing

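The log2 fold change of Ckmt2 kept its direction in all 11 alternative fits, between -0.61 and -0.50, but its adjusted p lay near the threshold. The number of members called, 1, fell to 0 with RLE normalization (adjusted p of Ckmt2 0.0503), with upper-quartile normalization (0.0522) and with a minimum of 1 CPM in 2 libraries (0.0665). It stayed at 1 with no filter, DESeq2 (3.9e-08) and limma-voom (0.0431). With each mouse left out it ranged from 0 to 1 and was 0 without Eko replicate 1 (0.0954) or Eko replicate 2 (0.175). With the replicate number as a block it was 1 (0.0152). The signs of Ckm, Ckb, Slc6a8, Gamt and Ampd1, all near 0, depended on which mouse was left out, while Gatm stayed between 0.30 and 0.56 and Ak1 between -0.08 and -0.06.

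The number of related genes called, 0, became 9 without the filter on low counts, 4 with DESeq2 and 1 with the replicate block (Mb, adjusted p 0.0295). With each mouse left out it ranged from 0 to 3: Atp2a2 without WT replicate 1, Prkag3, Oat and Myh1 without WT replicate 2, and Myom3 without Eko replicate 1. The cause was not tested. The order of the 9 mean levels was the same with the longest transcript as the length, but Ckmt2 was then below Ak1 in every mouse. The WT mean share of Ckmt2 became 9.05%.

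Deviations of same-numbered mice had a correlation of 0.162, which with 2 pairs does not show that the numbers pair the mice. The study calls the mice littermates, but no label says that a number marks a litter. The p-values measure only the spread between these animals, and 2 mice per genotype limit each result. Among the members tested, those of low level, Gatm, Ckb and Gamt, had the widest intervals.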
